A study of Mus musculus with 6 samples.

Results

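The mitochondrial ribosomal proteins were taken as the protein-coding genes whose symbol begins with *Mrpl* or *Mrps* followed by a number, 49 for the large subunit and 29 for the small subunit by name. They made up 78 of the 45777 genes in the table and all 78 had enough reads to be tested, with 61 reads as the smallest count in any mouse. Their transcripts were measured by RNA sequencing of whole liver from 3 WT mice, which carry *Pak4* flox/flox alone, and from 3 LKO mice, whose genotype is Alb-Cre; *Pak4* flox/flox, with 1 library per mouse. All were C57BL/6 males aged 8 weeks that had gone without food for 24 h, and every mouse of both genotypes carried the floxed *Pak4* alleles. In LKO mice the albumin promoter drives Cre recombinase, so that *Pak4*, which encodes a protein kinase, is deleted in hepatocytes. The question put to the data was whether these genes differed between the genotypes as one block, and, where they did not, along which lines they divided. In RNA from whole tissue, fewer cells of a type and less RNA per cell cannot be told apart.

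The mitoribosome translates the few mRNAs that the mitochondrial genome itself encodes, all of them for parts of the oxidative phosphorylation machinery. Its rRNAs are transcribed inside the organelle, whereas every one of its proteins is encoded in the nucleus, made in the cytosol and imported. Part of the proteins descend from bacterial ribosomal proteins and the rest are found only in mitochondria. Liver is rich in mitochondria, and fasting makes it lean on fatty acid oxidation and the respiratory chain.

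The promoters of the members are shown first, because NRF1, GABP (an ETS factor) and YY1 are known regulators of nuclear genes for mitochondrial proteins. RefSeq promoters on GRCm38.p6, which run from 250 bases before to 50 bases after the start of the gene, were on hand for 69 of the 78 members and for 26997 genes in all. The start is that of the RefSeq promoter entry, which for 47 of the 69 is the outer end of the gene and for 15 lies more than 100 bases inside the RefSeq span of the gene. Each motif was searched by its letters on both strands. The NRF1 motif GCGCANGCG was held by 16 members (23.2%) and by 6.47% of all promoters. The shorter motif TGCGCA, one arm of the NRF1 site, which can overlap the full motif, was held by 21 members (30.4%) and 8.06% of all promoters. The ETS/GABP motif CCGGAAG was held by 25 members (36.2%) against 9.12%, and the YY1 motif AAGATGGC by 12 members (17.4%) against 2.88%. The E box CACGTG was held by 7.25% of the members and 7.25% of all promoters, and the TATA box TATAAA by 5.8% against 14.2%. Genes that liver expresses are the closer background. Among the 11065 protein-coding genes tested that had a promoter, the shares were 12.8% for NRF1, 13.6% for its shorter motif, 17.0% for ETS/GABP, 4.34% for YY1, 9.75% for the E box and 8.08% for the TATA box. A match of these letters is a description of the sequence and not a site of binding.

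In 8 of the 12 members with a YY1 match it lay after the start of the gene, with its first base 12 to 37 bases from the start, and in these 8 it was on the strand of the gene. The 30 bases around these matches are given because they show one motif at nearly one place in genes from both ends of the range described below. The motif is in capitals, each window is on the strand of its gene, and the order runs from the highest to the lowest log2 fold change between LKO and WT mice.

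Mrpl35, chr6:71823743-71823772, minus strand: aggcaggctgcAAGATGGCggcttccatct
Mrpl42, chr10:95501904-95501933, minus strand: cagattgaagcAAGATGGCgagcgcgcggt
Mrps24, chr11:5707652-5707681, minus strand: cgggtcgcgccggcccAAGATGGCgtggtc
Mrps27, chr13:99344789-99344818, plus strand: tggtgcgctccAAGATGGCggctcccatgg
Mrps7, chr11:115604147-115604176, plus strand: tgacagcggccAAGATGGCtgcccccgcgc
Mrpl37, chr4:107066822-107066851, minus strand: ctgcacgggcaAAGATGGCggcgtccaggt
Mrps18a, chr17:46111004-46111033, plus strand: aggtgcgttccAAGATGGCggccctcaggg
Mrpl49, chr19:6057721-6057750, minus strand: gttgaggcgccAAGATGGCagcagcggtgt

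The first 3 of these genes passed the test as higher in LKO mice and the other 5 as lower. Motifs before the start were likewise found at both ends. The highest and the lowest of the members with an NRF1 match or an ETS/GABP match in the 100 bases before the start are given in the next lines, again with the motif in capitals and on the strand of the gene. *Mrpl32* and *Mrps16* were called higher in LKO mice, and *Mrpl45* and *Mrps18a* lower. The start used lies 793 bases inside the span of *Mrpl45* and 144 bases inside that of *Mrps16*, for which 1 of 2 entries was read, so these windows are not upstream of the whole gene.

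Mrpl32, NRF1, chr13:14613038-14613137, minus strand: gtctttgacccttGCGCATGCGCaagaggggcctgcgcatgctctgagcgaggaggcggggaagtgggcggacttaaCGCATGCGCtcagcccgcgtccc
Mrpl45, NRF1, chr11:97315616-97315715, plus strand: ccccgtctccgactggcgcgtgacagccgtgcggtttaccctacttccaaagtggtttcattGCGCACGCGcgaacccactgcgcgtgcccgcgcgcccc
Mrps16, ETS/GABP, chr14:20393491-20393590, minus strand: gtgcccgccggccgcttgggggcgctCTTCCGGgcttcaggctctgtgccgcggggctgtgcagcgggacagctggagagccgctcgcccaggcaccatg
Mrps18a, ETS/GABP, chr17:46110904-46111003, plus strand: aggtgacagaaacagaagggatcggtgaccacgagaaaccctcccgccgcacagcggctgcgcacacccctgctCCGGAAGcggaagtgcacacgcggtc

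Across the 69 members with a promoter, the median log2 fold change was -0.39 with a YY1 match and 0.32 without one. For NRF1 the medians were 0.28 with and 0.29 without a match, and for ETS/GABP 0.15 and 0.37. Among protein-coding genes tested, the medians were -0.16 with a YY1 match and -0.12 without. Members that share a motif were measured in the same libraries, and no test was made of these medians.

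The total count per library was 45934632 to 55205564 in WT mice against 53936281 to 59576437 in LKO mice, and the groups overlapped. The TMM scaling factors, which correct for unequal composition of libraries, were 1.28 to 1.43 in WT against 0.639 to 0.816 in LKO mice, and the sign of many differences depended on the scale. *Pak4* was at 3.63 ± 0.445 CPM (TMM-scaled counts per unit of library size) in WT against 2.21 ± 0.900 CPM in LKO mice (mean ± SD, n = 3), and missed the threshold (log2 fold change -0.71 ± 0.31 (SE), adjusted p = 0.101 by edgeR's quasi-likelihood test; exact permutation p = 0.2, two-sided, with 0.1 as the smallest p that 3 against 3 mice allow). The median log2 fold change of all 18636 genes tested was -0.039 after TMM, -0.90 with total counts and -0.79 on log2(TPM + 1). The hepatocyte markers *Alb*, *Apoa1* and *Cps1* were called higher after TMM and *Ttr* lower, with the sum of the 7 hepatocyte markers at 41021 to 44851 CPM in WT against 105480 to 128540 CPM in LKO mice. The sums of the Kupffer cell markers were 263 to 403 CPM in WT against 424 to 822 CPM in LKO mice, those of the 5 stellate cell markers 209 to 246 and 539 to 803 CPM, those of the 5 sinusoidal endothelial markers 211 to 252 and 362 to 389 CPM, and those of the 4 erythroid markers 179 to 293 and 834 to 1537 CPM. The 4 cholangiocyte markers tested summed to 32.9 to 50.1 CPM in WT against 13.4 to 29.9 CPM in LKO mice. *Krt7*, at 0 counts in 2 WT mice, was not tested and is not in this sum. Most of the sum came from *Spp1*, at 3588, 2632 and 2019 counts in WT against 784, 924 and 540 counts in LKO mice. *Spp1* was called lower (log2 fold change -1.09), while *Krt19* (1.00), *Sox9* (0.11) and *Epcam* (0.048) were not called. The 5 lymphocyte and neutrophil markers summed to 46.9 to 67.5 CPM in WT against 39.6 to 69.3 CPM in LKO mice. Single markers within a list went different ways after TMM. *S100a8* (log2 fold change 2.49) and *S100a9* (2.31) were called higher, while *Cd3e* (-1.26), *Cd79a* (-0.52) and *Ptprc* (-0.47) were not called. *Hbb-bs* and *Hbb-bt* were called higher and *Alas2* lower (-1.37), and *Hba-a1* (1.08) was not called. *Clec4f* and *Vsig4* were called higher, and *Cd5l* (0.86), *Adgre1* (-0.12) and *Csf1r* (-0.18) were not called. The stellate markers *Dcn* (2.12) and *Lrat* (1.03) were called higher, and *Des* (0.70), *Reln* (0.36) and *Col1a1* (-0.24) were not called. The endothelial markers *Lyve1* (1.70), *Clec4g* (1.53) and *Pecam1* (0.69) were called higher, and *Stab2* (0.17) and *Kdr* (0.093) were not. The hepatocyte markers *Tat* (1.23), *Apob* (0.83) and *Pck1* (0.73) were not called. The part of these markers in the results was not tested.

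The family did not move as one block. On the TMM scale 32 members were higher in LKO mice and 14 were lower at an adjusted p under 0.05 by edgeR's quasi-likelihood test, and 32 were not called. Among all genes tested 19.6% were called higher and 20.5% lower. Calls with at least a 2-fold change were made for 16 members upward and 4 downward, where 13.2% and 11.7% of all genes had them. The members' median log2 fold change was 0.28, which is 0.32 above the median of all genes, and 49 of the 78 lay above that median. The individual values ran from 2.16 for *Mrpl20* to -2.11 for *Mrps12*. The spread between mice of one genotype was small, with a median coefficient of variation of CPM over members of 9.55% in WT against 16.6% in LKO mice, against 14.2% and 20.01% over protein-coding genes.

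The CPM of all LKO mice lay above those of all WT mice for 38 members and below them for 23, and the groups overlapped for 17. Over all genes tested, 26.1% lay above and 27.9% below. With total counts in place of TMM, 10 members were called higher and 43 lower, where 6.26% and 51.4% of all genes were. Of the 32 members called higher after TMM, 23 stayed above 0 with total counts and 9 were below 0, whereas all 14 called lower stayed below 0 with total counts and on log2(TPM + 1). The change from TMM to total counts shifts every gene by nearly the same amount, so the median of the family stayed 0.32 above that of all genes by construction.

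On TPM, the length-normalized values made by the authors, most members were lower. The TPM of all LKO mice lay below those of all WT mice for 68 members and above them for 3, *Mrpl20*, *Mrpl54* and *Mrps33*, where 74.9% of all genes lay below and 2.98% above. By limma on log2(TPM + 1), 66 members were called lower and 2 higher, against 71.5% and 2.43% of all genes, and 20 of the 66 had been called higher after TMM. The members' median on this scale was at -0.41 relative to that of all genes, and at 0.052 with a pseudocount of 0.1 in place of 1.

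A comparison within the family needs no scaling of libraries. Each member's count was therefore divided by the summed count of all members in the same mouse. This share was higher in all LKO mice than in all WT mice for 26 members, all of them called higher after TMM, and lower for 41, which included all 14 called lower. The same division put 13% of all genes higher and 46.8% lower.

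**Figure D1:**
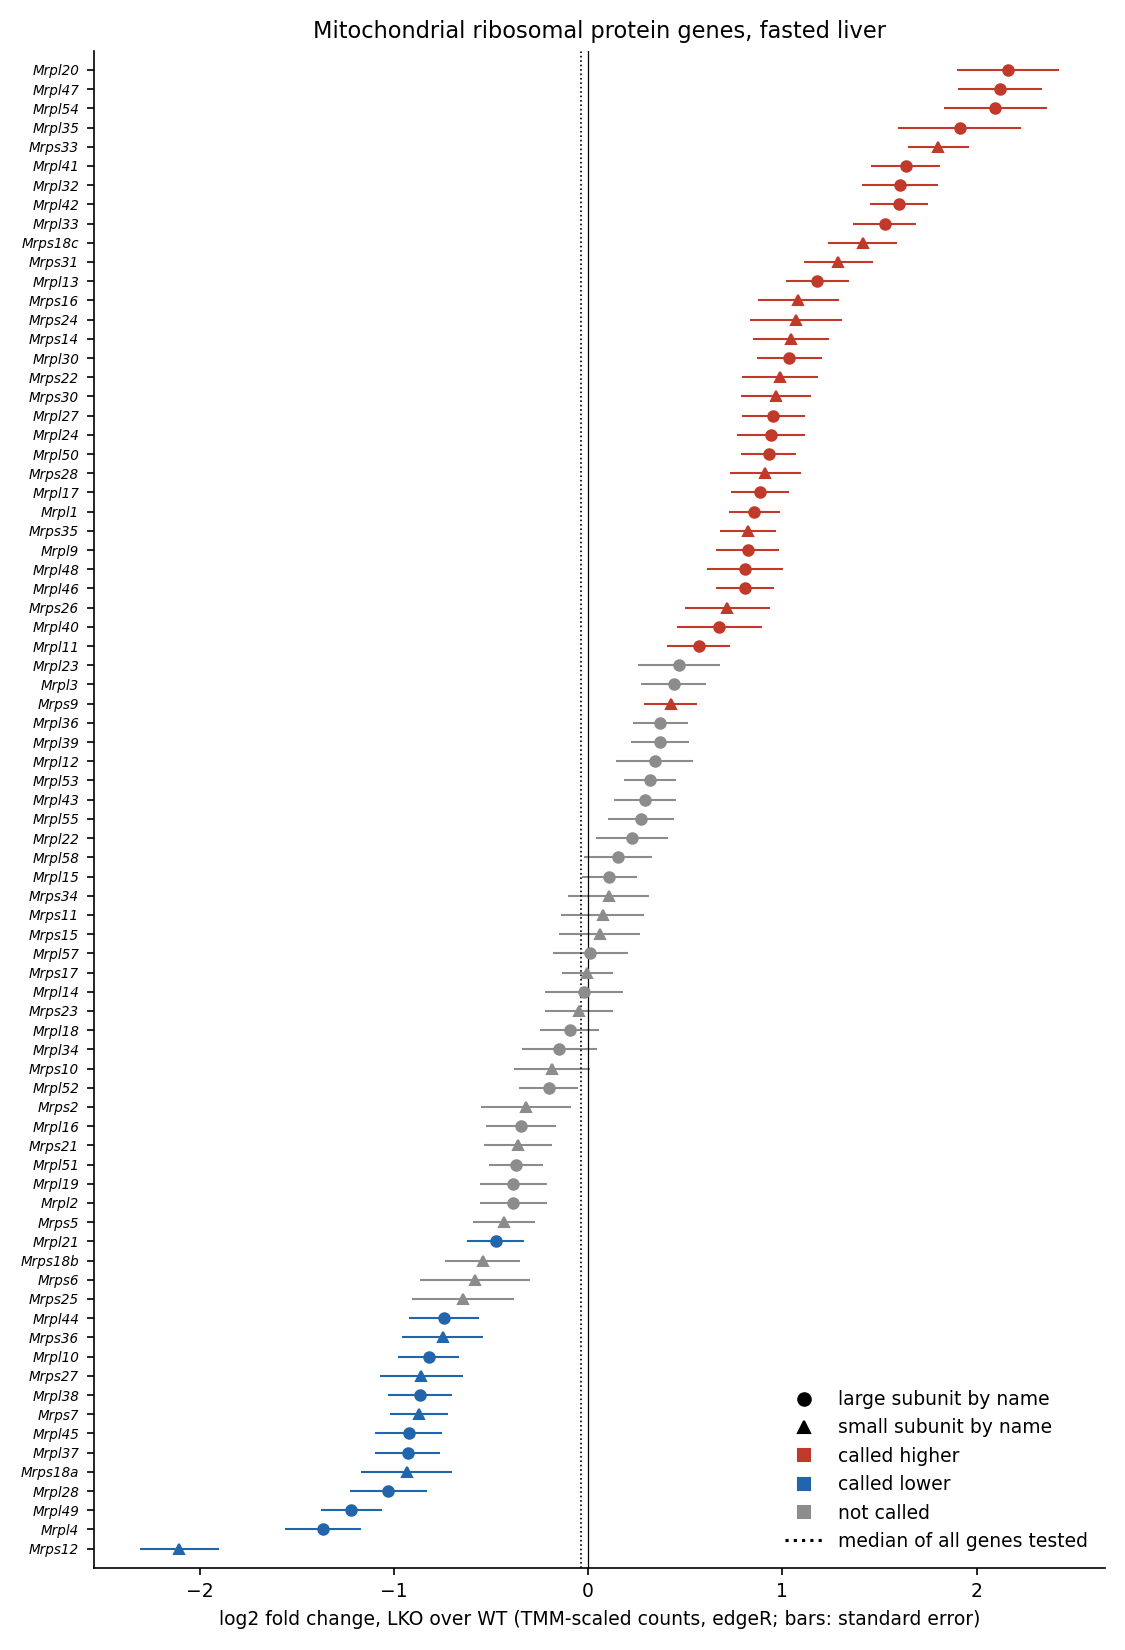
Log2 fold change (x axis, LKO over WT, TMM-scaled counts) of each of the 78 members (y axis, in order), with the standard error of the edgeR model as bars. Circles are large and triangles small subunit genes by name. 32 members were called higher and 14 lower; with total counts, 9 of the 32 had a value below 0, and on log2(TPM + 1) 24 of the 32 did.

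The 5 members with the highest log2 fold change were *Mrpl20*, *Mrpl47*, *Mrpl54*, *Mrpl35* and *Mrps33*. They stayed above 0 with total counts and on log2(TPM + 1), and were called in all 6 fits that left out 1 mouse. *Mrpl20* (Entrez gene 66448, chromosome 4, 155802878 to 155808831) encodes a large subunit protein with a bacterial relative, bL20. Its level was 28.6, 21.4 and 29.3 CPM in WT mice against 93.3, 167 and 94.9 CPM in LKO mice. The groups were far apart, with LKO mouse 2 above the other LKO mice, and the log2 fold change was 2.16 ± 0.26 (SE, adjusted p = 0.000598 by edgeR's quasi-likelihood test). It took 1.73 to 2.102% of all member counts in WT mice against 4.998 to 7.55% in LKO mice.

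*Mrpl47*, a large subunit protein near the exit of the nascent peptide, was at 6.57, 5.67 and 8.25 CPM in WT against 24.7, 27.5 and 36.9 CPM in LKO mice. The groups did not overlap in CPM, and the log2 fold change was 2.12 ± 0.22 (SE). In TPM its groups overlapped, at 13.6 to 17.5 in WT against 17.2 to 32.3 in LKO mice. *Mrpl54*, a large subunit protein without a bacterial relative, was at 6.53, 4.83 and 5.76 CPM in WT against 20.7, 34.6 and 18.03 CPM in LKO mice. It rose by 2.096 ± 0.27 (SE) on the log2 scale, and its TPM were also higher in all LKO mice, at 23.4 to 32.2 against 17.3 to 21.7.

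*Mrpl35*, the bL35 of the large subunit, was at 7.59, 17.1 and 19.4 CPM in WT against 48.9, 58.3 and 59.0 CPM in LKO mice. The groups did not overlap in CPM, WT mouse 1 lay far below the other WT mice, and without it the log2 fold change was 1.61 in place of 1.91 ± 0.32 (SE). *Mrps33*, a small subunit protein found only in mitochondria, was at 16.4, 13.6 and 16.0 CPM in WT against 47.6, 61.0 and 52.0 CPM in LKO mice, with a log2 fold change of 1.80 ± 0.16 (SE). Mice of both genotypes lay close together for this gene, and its TPM were higher in all LKO mice too, at 31.8 to 37.7 against 27.2 to 30.5.

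At the other end, *Mrps12* (Entrez gene 24030, chromosome 7, 28739641 to 28741821) encodes uS12m, the protein of the decoding centre where codon and anticodon are matched. Its level was 17.2, 14.1 and 16.2 CPM in WT against 4.45, 3.67 and 2.92 CPM in LKO mice. The WT mean was 4.31 times the LKO mean, and the log2 fold change was -2.11 ± 0.20 (SE, adjusted p = 0.000315 by edgeR's quasi-likelihood test). Its share of the member counts was 1.14 to 1.22% in WT against 0.158 to 0.239% in LKO mice. It was below 0 in the other 24 settings run as well.

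Of the next 4 members from the bottom, 3 belong to the large subunit by name. *Mrpl4*, uL4m, was at 11.3, 11.8 and 10.6 CPM in WT against 5.38, 3.99 and 3.68 CPM in LKO mice (log2 fold change -1.37 ± 0.20, SE). *Mrpl49*, found only in mitochondria, was at 23.3, 26.8 and 23.0 CPM in WT against 11.5, 10.7 and 9.13 CPM in LKO mice (-1.22 ± 0.16, SE). *Mrpl28*, the bL28 of the large subunit, was at 27.2, 24.4 and 24.99 CPM in WT against 14.7, 13.9 and 8.996 CPM in LKO mice (-1.03 ± 0.20, SE). None of these groups overlapped in CPM or in TPM. *Mrps18a* was at 14.0, 8.24 and 10.7 CPM in WT against 4.84, 5.82 and 6.57 CPM in LKO mice (-0.93 ± 0.23, SE), and its call was lost without WT mouse 1, where the value was -0.71.

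**Figure D2:**
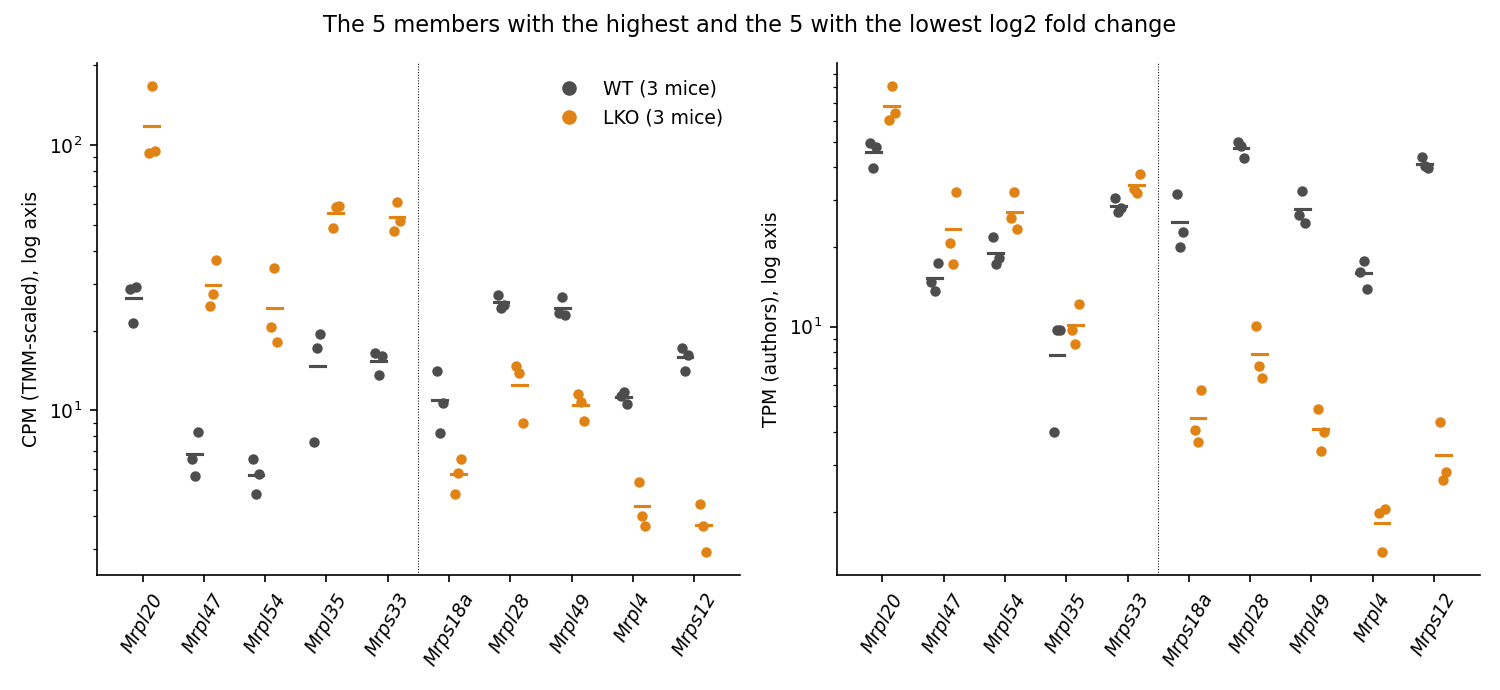
Level of the 5 members with the highest and the 5 with the lowest log2 fold change in each mouse, as TMM-scaled CPM (left) and as TPM (right), both on log axes. Points are mice and bars group means (n = 3). CPM separated the genotypes for all 10 genes; in TPM the 5 lowest were lower in all LKO mice, whereas among the 5 highest *Mrpl47* and *Mrpl35* overlapped.

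The large and the small subunit were then compared. Of the 49 large subunit genes by name, 20 were called higher and 9 lower, with a median log2 fold change of 0.34. Of the 29 small subunit genes, 12 were called higher and 5 lower, with a median of 0.058. In the large and the small subunit 40.8% and 41.4% were called higher, against 19.6% of all genes. Those called lower were 18.4% and 17.2%, near the 20.5% of all genes. With total counts the medians were -0.51 and -0.80. The ratio of summed large to summed small subunit TPM, which does not depend on the scaling of libraries, was 2.00, 2.01 and 1.99 in WT mice against 2.31, 2.31 and 2.37 in LKO mice. The ratio was thus higher in all LKO mice, by more than the spread within either genotype (mean ± SD 2.00 ± 0.00979 against 2.33 ± 0.0321, n = 3). The ratio of summed counts did the same, at 2.14 to 2.21 in WT against 2.44 to 2.46 in LKO mice. Both sums are led by abundant members. With the geometric mean over members, in which each gene has equal weight, the ratio of large to small subunit counts was 1.31 to 1.36 in WT against 1.54 to 1.63 in LKO mice.

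The names do not match the structure everywhere, since *Mrps30* and *Mrps18a* encode proteins of the large subunit and *Mrps36* a protein of the 2-oxoglutarate dehydrogenase complex. With genes placed by structure, the ratio of summed TPM was 2.17 to 2.197 in WT against 2.42 to 2.52 in LKO mice, and the median log2 fold changes were 0.34 for 51 large and 0.067 for 26 small subunit genes. The higher ratio depended on taking genes by the *Mrpl* and *Mrps* symbols. With the 5 mitoribosome proteins of other names added, *Gadd45gip1* to the large and *Dap3*, *Chchd1*, *Aurkaip1* and *Ptcd3* to the small subunit, the ratio of summed TPM was 1.85, 1.78 and 1.77 in WT mice against 1.70, 1.59 and 1.79 in LKO mice. The ratio of summed counts was then 1.80 to 1.86 in WT against 1.67 to 1.83 in LKO mice. On both scales the groups overlapped, and the LKO mean was below the WT mean. This addition was made after the data had been seen. Members were also split by descent. The 46 members with bacterial relatives had a median of 0.31, with 19 (41.3%) called higher and 6 (13%) lower. The 31 found only in mitochondria had a median of 0.29, with 13 (41.9%) higher and 7 (22.6%) lower. Of all genes, 19.6% were called higher and 20.5% lower.

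**Figure D3:**
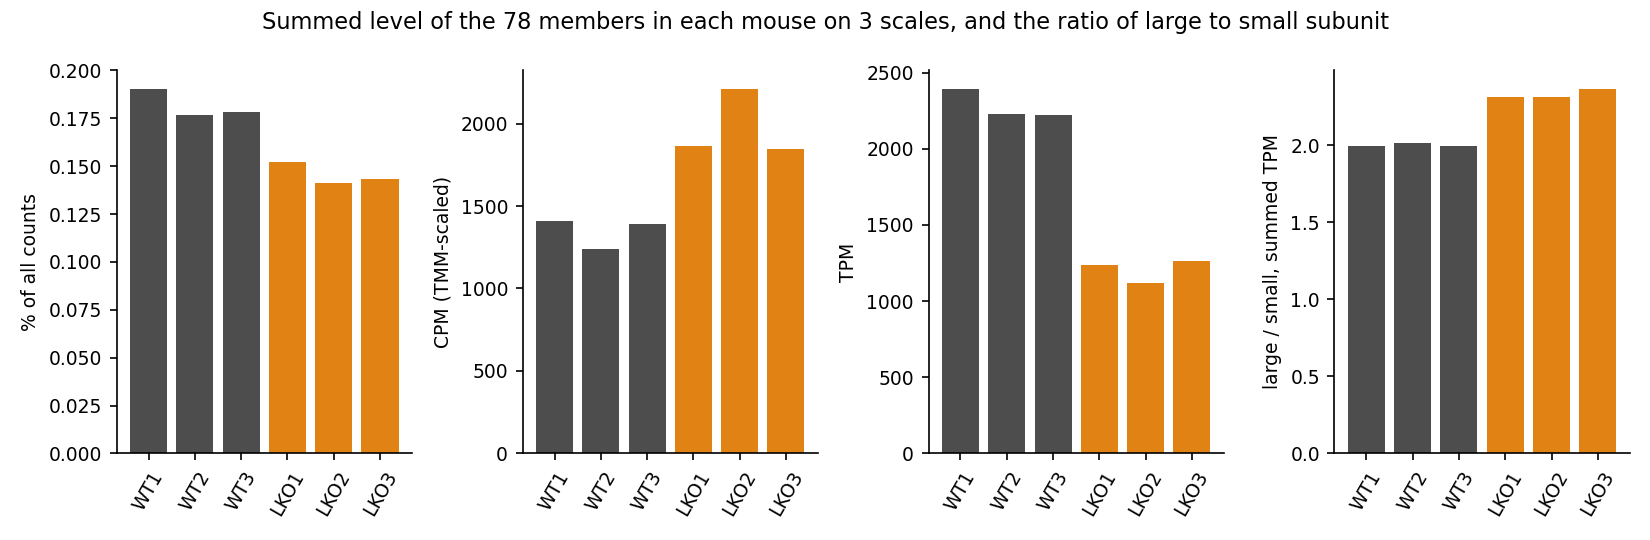
Summed level of the 78 members in each mouse as a percentage of all counts, as TMM-scaled CPM and as TPM, and the ratio of summed large to summed small subunit TPM (y axes start at 0, WT in grey, LKO in orange). The sum was lower in LKO mice as a percentage of counts and in TPM and higher in CPM, and the ratio was 1.99 to 2.01 in WT against 2.31 to 2.37 in LKO mice; with the 5 proteins of other names added the groups overlapped.

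The summed level of the family turned with the scale as well. The members took 0.177 to 0.191% of all counts in WT against 0.141 to 0.152% in LKO mice, and their summed TPM was 2222 to 2395 in WT against 1116 to 1260 in LKO mice. Their summed TMM-scaled CPM was 1240 to 1411 in WT against 1848 to 2212 in LKO mice. On each of these scales the groups did not overlap, with LKO mice lower as a percentage of counts and in TPM and higher in TMM-scaled CPM. Per length, *Mrpl30* had the highest mean over all 6 mice (82.2, 73.5 and 81.4 TPM in WT, 70.3, 67.8 and 63.7 TPM in LKO mice) and *Mrps25* the lowest (4.32, 3.76 and 3.35 TPM in WT, 1.30, 0.542 and 0.715 TPM in LKO mice). In WT mice alone *Mrps21* was above it (mean 82.9 against 79.0 TPM), and in LKO mice alone *Mrpl42* (68.6) and *Mrpl20* (68.4 against 67.3 TPM) were. *Mrpl30* was lower in TPM in all LKO mice but was called higher after TMM, with a log2 fold change of 1.04 ± 0.17 (SE).

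On the TMM scale, proteins that sit side by side in the ribosome did not share a direction. In the stalk, where translation factors dock, *Mrpl10*, the anchor of the stalk, was at 27.7, 21.5 and 22.7 CPM in WT against 12.8, 14.9 and 13.0 CPM in LKO mice and fell by 0.82 on the log2 scale. *Mrpl12*, which forms the flexible arms on that anchor, was at 21.0, 21.9 and 25.4 CPM in WT against 33.9, 21.1 and 31.6 CPM in LKO mice, and its groups overlapped (log2 fold change 0.34 ± 0.20, SE, adjusted p = 0.202 by edgeR's quasi-likelihood test). *Mrpl11*, at the base of the stalk, was called higher with a log2 fold change of 0.57, a call kept in 1 of the 6 fits without 1 mouse and of opposite sign with total counts (-0.31) and on log2(TPM + 1) (-0.88). *Mrpl53* was not called (0.32 ± 0.13, SE). With total counts *Mrpl10*, *Mrpl11*, *Mrpl12* and *Mrpl53* all lay below 0. On log2(TPM + 1) these 4 stalk genes were all called lower, where 71.5% of all genes were.

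Of the 8 members around the exit of the peptide tunnel, 3 were called higher and 2 lower after TMM. These are 37.5% and 25%, against 19.6% and 20.5% of all genes. On log2(TPM + 1), 7 of the 8 were called lower, where 71.5% of all genes were. *Mrpl45*, which ties the ribosome to the inner membrane, was lower, at 25.7, 21.2 and 22.0 CPM in WT against 14.2, 12.01 and 10.1 CPM in LKO mice (-0.92 ± 0.17, SE). Of the 9 members assigned here to the central protuberance, a list without *Mrpl58*, 5 (55.6%) were called higher and 1 (11.1%) lower after TMM. Their median was 0.68 after TMM, -0.21 with total counts and -1.20 on log2(TPM + 1), where all 9 were called lower. *Mrpl58*, a peptidyl-tRNA hydrolase built into the large subunit, was not called (0.15 ± 0.18, SE).

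The S18 family has 3 genes in mammals. *Mrps18c* was at 14.97, 14.5 and 16.3 CPM in WT against 37.2, 50.5 and 34.4 CPM in LKO mice, a rise of 1.41 ± 0.18 (SE) on the log2 scale that was kept with total counts (0.53), while its TPM were lower in all LKO mice, at 52.1 to 55.0 against 58.3 to 60.7. *Mrps18b* was at 17.7, 16.1 and 19.2 CPM in WT against 9.75, 11.4 and 15.2 CPM in LKO mice, and just missed the threshold (-0.54 ± 0.19, SE, adjusted p = 0.0523 by edgeR's quasi-likelihood test). *Mrps18a*, given above, was lower. The genes of one family thus lay at different places in the order, with groups that did not overlap in CPM for any of the 3.

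Several members are mutated in human mitochondrial disease. Of these, *Mrps16* (1.08 ± 0.21, SE) and *Mrps22* (0.99 ± 0.20, SE) were called higher after TMM and lay above 0 without a call with total counts (0.19 and 0.10), but were called lower on log2(TPM + 1). *Mrpl44* was lower on all 3 scales (-0.74 after TMM, -1.59 with total counts and -1.999 on log2(TPM + 1)). *Mrpl3* (0.44 ± 0.17, SE) and *Mrps34* (0.11 ± 0.21, SE) were not called after TMM. Among the members whose names mislead, *Mrps30* was called higher (0.97 ± 0.18, SE) with a sign that turned on log2(TPM + 1) (-0.52), and *Mrps36* lower (-0.75 ± 0.21, SE), a call kept in 3 of the 6 fits without 1 mouse.

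The base composition of the transcript went along with the order of the members. GC content of the transcript with the longest coding sequence of each gene was taken from GENCODE M21 for all 78 members and for 96.7% of the protein-coding genes tested. That transcript, the longest one where coding sequences tied, need not be the one that was measured. For *Mrpl47* it had 3364 bases with a ratio of read count to FPKM of 52.4, and for *Mrps21* 488 bases with a ratio of 29.1. Across the 78 members, which share their libraries and are not replicates, Spearman's rho of log2 fold change with GC content was -0.43 and Pearson's r was -0.41. Over 13395 protein-coding genes rho was -0.29. In the lowest of 4 bins of GC content, cut at the quartiles of protein-coding genes, 10 of 14 members were called higher and 0 lower, and in the highest bin 2 of 17 were called higher and 7 lower. Of all protein-coding genes, 40.9% were called higher and 9.58% lower in the lowest bin and 9.56% and 29.1% in the highest, so the share of members called higher in the highest bin (11.8%) was near the background. The median GC content was 47.4% over members called higher and 54.3% over those called lower. There were exceptions on the high side, such as *Mrpl54* with 60.4% GC.

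Members had short transcripts. By relative gene length, the ratio of read count to FPKM, 65 of the 78 lay in the shortest of 4 such bins. Within that bin the members' median log2 fold change was 0.27 and that of all its protein-coding genes was 0.14. Across members rho with relative length was -0.14, close to -0.12 over 13858 protein-coding genes. With a correction for relative gene length, 27 members were called higher and 25 lower, where 19.5% and 19.2% of all genes were, and the members' median minus that of all genes was -0.012. With a correction for GC content, which was chosen after the data had been seen, 37 were called higher and 11 lower, against 19.3% and 16.2%, and the median was 0.37 above that of all genes. The place of the family relative to all genes thus moved with the treatment of gene length, while *Mrpl20* was at 1.87 and *Mrps12* at -2.69 after the correction for length.

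**Figure D4:**
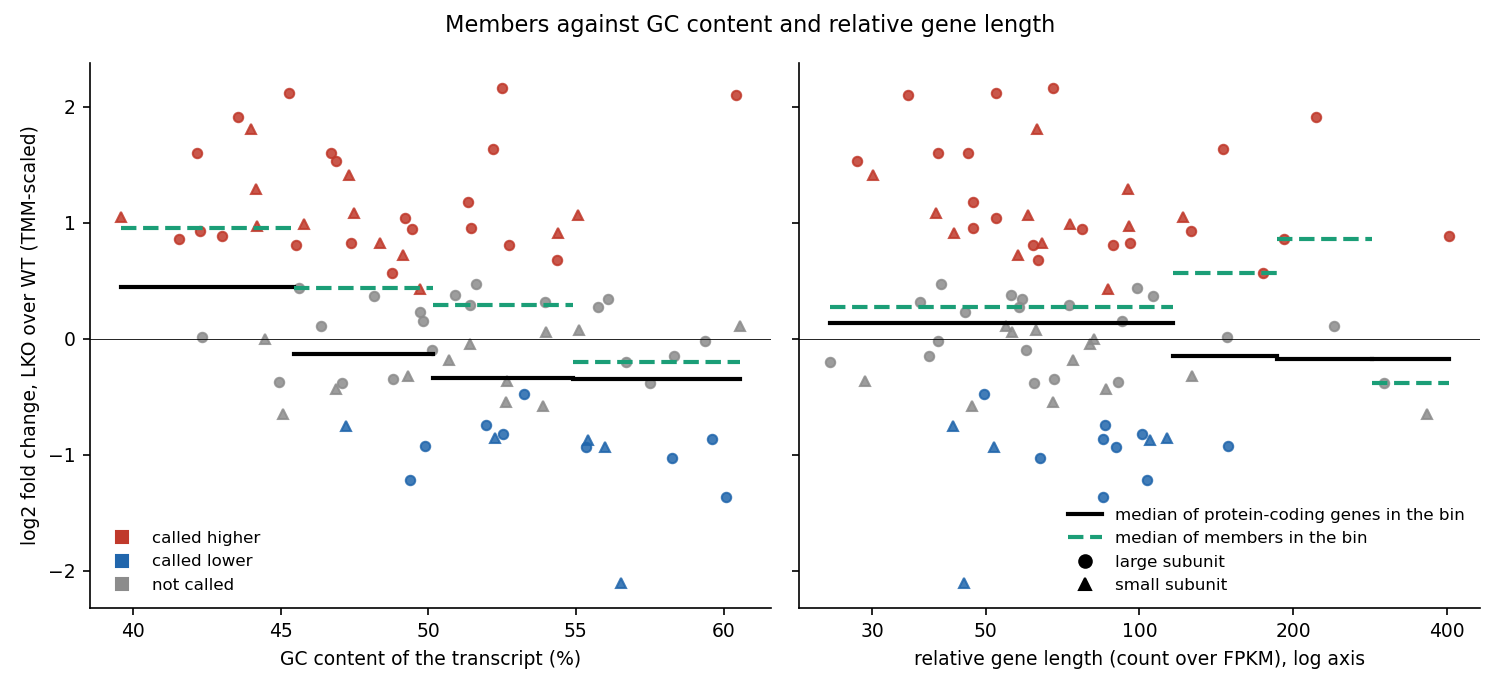
Log2 fold change (y axis, LKO over WT, TMM-scaled) of the 78 members against GC content of the transcript (left, %) and relative gene length (right, log axis, in units of read count over FPKM). Black lines are medians of protein-coding genes and dashed green lines medians of members in 4 bins cut at the quartiles of protein-coding genes. Members run from 0.95 in the bin of lowest GC content to -0.20 in the highest, and 65 of 78 are in the shortest bin.

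The other genes of mitochondrial translation were read from the same fit, in which 19.6% of all genes were called higher and 20.5% lower. Of 5 mitoribosome proteins with other names, *Chchd1* (2.201 ± 0.21, SE), *Aurkaip1* (1.65 ± 0.28) and *Ptcd3* (0.82 ± 0.13), all of the small subunit, were called higher. *Ptcd3* turned sign with total counts (-0.044) and on log2(TPM + 1) (-0.71). *Dap3* (0.065 ± 0.19) and *Gadd45gip1* (0.58 ± 0.34) were not called. Of 28 factors for assembly of the mitoribosome and modification of its rRNA, 9 were called higher and 9 lower, with a median of 0.10 after TMM and -0.77 with total counts. The highest was *Fastkd2*, an RNA-binding protein of mitochondrial RNA granules, with 1.80 ± 0.15 (SE), and the lowest *Nsun4*, an rRNA methyltransferase, with -1.43 ± 0.17 (SE).

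Of 16 translation factors, 6 (37.5%) were called higher and 3 (18.8%) lower, the latter near the share of all genes (20.5%). *Mtrf1*, a release factor, was at 5.49, 4.89 and 5.99 CPM in WT against 21.2, 21.0 and 19.6 CPM in LKO mice, a rise of 1.92 ± 0.15 (SE) on the log2 scale. *Tufm*, the elongation factor that brings tRNA to the ribosome, was at 59.0, 45.5 and 52.6 CPM in WT against 15.9, 15.8 and 17.6 CPM in LKO mice and fell by 1.67 on the log2 scale. The groups of both genes were far apart. The 20 aminoacyl-tRNA synthetases and related enzymes, which charge mitochondrial tRNAs, had 8 called lower and 1 higher, with a median of -0.46 after TMM and -1.32 with total counts. *Tars2* was lowest (-1.53 ± 0.15, SE), and *Pars2*, the one called higher (0.78 ± 0.26, SE), lost its call in all 6 fits without 1 mouse.

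Of 16 genes for transcription and upkeep of mitochondrial DNA, 8 were called higher and 3 lower, with a median of 0.58 after TMM but -0.28 with total counts, from *Mterf2* (3.06 ± 0.29, SE), a protein of the MTERF family, to the helicase *Twnk* (-0.94 ± 0.19, SE). *Twnk* overlaps the member *Mrpl43* in the genome. Among 9 regulators of mitochondrial biogenesis 1 was called, *Ppargc1a*, the coactivator PGC-1α, at 8.62, 9.40 and 6.79 CPM in WT against 18.9, 17.98 and 110 CPM in LKO mice. LKO mouse 3 stood far above the others, and without it the log2 fold change was 1.16 in place of 2.56. The call was kept in 3 of the 6 fits without 1 mouse and lost without each WT mouse in turn. The 2 mitochondrial rRNAs were not called (*mt-Rnr1* 1.08 ± 0.44 and *mt-Rnr2* 0.90 ± 0.38, SE), with 20154, 15503 and 32255 CPM of *mt-Rnr2* in LKO and 9479, 13151 and 13659 CPM in WT mice. The reads of rRNA depend on how the library was made, on which the labels and the methods differ.

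Cytosolic ribosomal proteins and the nuclear subunits of respiratory complex I, which also holds subunits made on mitoribosomes, were read beside the members. Of 87 cytosolic ribosomal protein genes tested, 63 were called higher and 2 lower, with a median of 1.08 after TMM, 0.20 with total counts and -0.43 on log2(TPM + 1). Of 36 complex I genes 21 (58.3%) were called higher and 6 (16.7%) lower, against 19.6% and 20.5% of all genes. Their median was 0.79 after TMM, -0.083 with total counts and -0.75 on log2(TPM + 1). Relative to all genes, the medians after TMM were 1.11 for cytosolic ribosomal proteins, 0.82 for complex I and 0.32 for the members, and with the correction for length 0.56, 0.24 and -0.012. No test of these differences was made, since genes of one family share libraries.

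**Figure D5:**
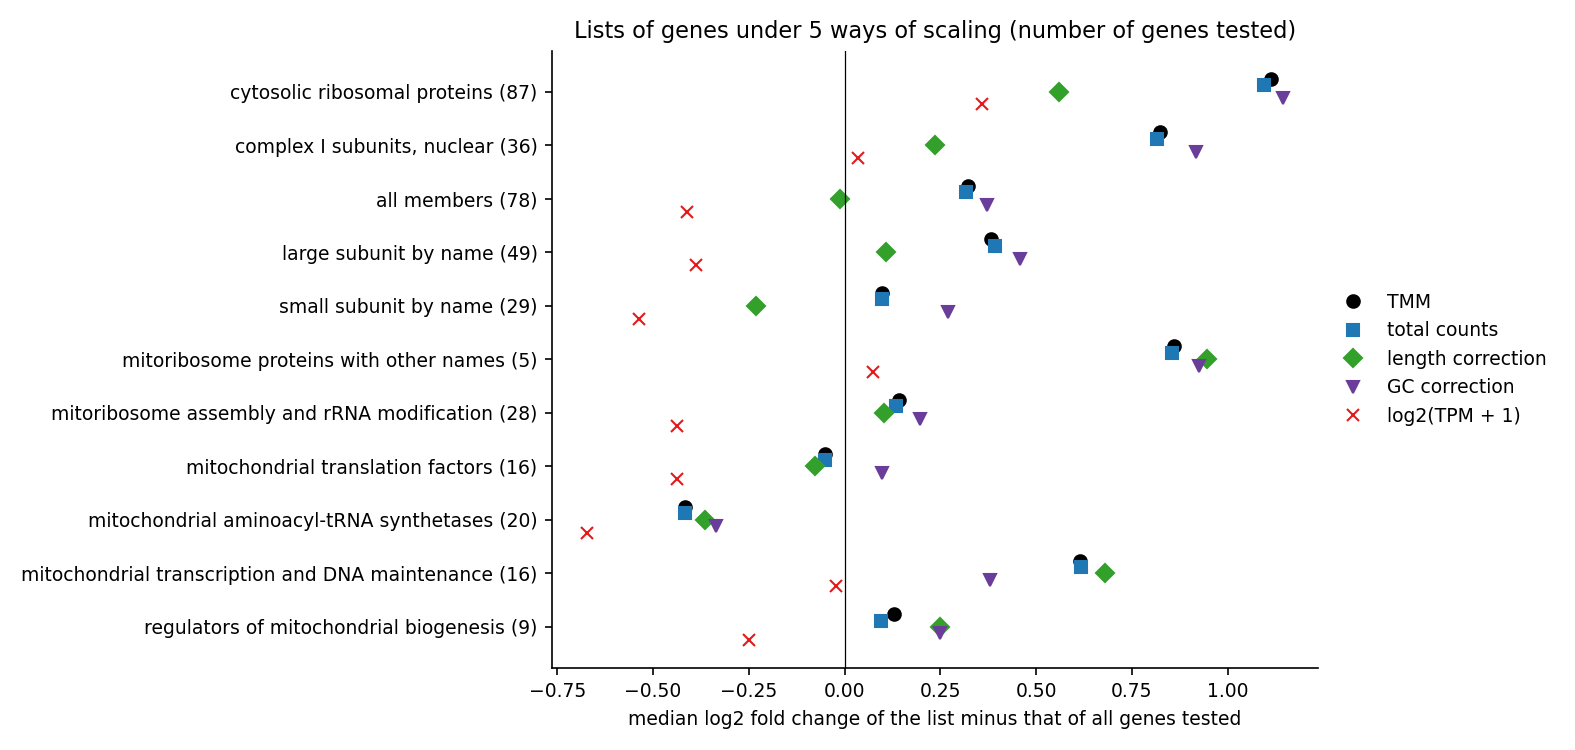
Median log2 fold change of each list minus the median of all genes tested (x axis) under 5 ways of scaling, with the number of genes tested in brackets. The members lie 0.32 above all genes after TMM and with total counts, at -0.012 with the correction for length and at -0.41 on log2(TPM + 1), which turned to 0.052 with a pseudocount of 0.1; the synthetases lie below 0 and the cytosolic ribosomal proteins above 0 on each of the 5.

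Reads of some members may have been shared with other genes. By RefSeq, 25 members overlap another gene and 20 of them a protein-coding gene, and the 25 include 6 members called higher and 7 called lower. *Mrpl49* overlaps *Syvn1*, which was lower too (log2 fold change -1.88), *Mrpl37* overlaps *Cyb5rl* (-1.18) and *Mrpl44* overlaps *Wdfy1* (-1.15). Whether the counting used strand is not stated, and without it such pairs cannot be told apart. The pseudogene *Mrpl48-ps* was at 10, 10 and 10 counts in WT against 149, 269 and 108 counts in LKO mice. Its parent *Mrpl48* was called higher (0.81 ± 0.20, SE), and its ratio of count to FPKM differed between mice, with 4.55 TPM in LKO mouse 2 beside 14.0 and 12.3 TPM in the other LKO mice. *Mrpl48* was the 1 member in which this ratio varied more than 1.5 times among mice. Adding the counts of pseudogenes to their parents left 32 members called higher and 14 lower.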

How the data were processed

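The authors deposited 1 table of 45777 genes with unnormalized read counts, FPKM and TPM for each of the 6 mice. By the submitters' processing notes the tools were bcl2fastq 2.20.0, FastQC 0.11.7, HISAT2 2.1.0, Bowtie2 2.3.4.1 and StringTie 2.1.3b, with mm10. The deposited counts are whole numbers of reads per gene made with StringTie by the authors, and whether strand was used is not given in the sources used here. The FPKM that the authors deposited entered only the ratio of count to FPKM, used as relative gene length. The TPM were made by the authors per length and scaled to one sum per mouse. The labels name 1 µg of RNA and a stranded mRNA kit, whereas the methods name a smaller amount and a kit with removal of rRNA.

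A gene was tested where at most 1 of the 6 mice had no read, and 18636 genes passed, of which 13858 code for protein. The fit used TMM factors and the two-sided quasi-likelihood test of edgeR (version 4.0.16, R 4.3.3) between genotypes. P-values were adjusted by Benjamini-Hochberg across every gene in the fit and read at 0.05. CPM are counts scaled to a common library size by TMM. The common biological coefficient of variation was 0.254. Errors are the SD of 3 mice or the SE from edgeR. Replicates are separate mice, since the labels give 1 library per mouse.

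Alternatives were edgeR's exactTest, DESeq2 1.42.0 and its size factors, upper-quartile scaling, total counts, protein-coding genes alone, the replicate number as a block, 3 other low-count filters, lowess trends per mouse (span 0.3) on relative length as offsets, limma 3.58.1 on log2(TPM + 1) and log2(TPM + 0.1), and leaving out each mouse. Trends on GC content, pseudogene counts added to the parent, proteins of other names added to the subunit sums and shares of member counts were chosen after the data had been seen. For the replicate numbers, same-numbered mice of the 2 genotypes did not deviate together, so no pairing was assumed.

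The members, the lists of other genes and the motifs were chosen with earlier results of these data known. Genes named are the 5 highest and 5 lowest members, members with a given place in the ribosome or a role in disease, the most and least abundant per length, the proteins with other names, the extremes of each other list and *Pak4*. Further genes (*Mrpl32*, *Mrpl42*, *Mrps24*, *Mrps27*, *Mrps7*, *Mrpl37*, *Mrpl48*, *Mrps21* and overlapping genes) were named after their values were seen. The procedure was tested on simulated counts for 18636 genes in this comparison, first without a trend on gene length. Of 50 genes raised by 2 on the log2 scale it recovered 50, and of 50 lowered by 2 it recovered 48. Of 50 raised by 1 it recovered 21, of 50 lowered by 1 it recovered 7, and it called 3 unchanged genes. With a trend on relative gene length put into the simulated LKO counts, the same test called 2354 unchanged genes. With the correction for length it called 6. The size of that trend was set and not fitted to the data. The simulation did not include the difference in TMM factors between the genotypes.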

Additional observations from a re-analysis of the deposited data

How the results depend on the processing

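Adjusted p-values were read at 0.05 in all settings. With total counts 10 members were called higher and 43 lower, and *Pak4* was at -1.54; the sign turned for *Mrpl11* (-0.31), *Mrpl12* (-0.49), *Mrpl53* (-0.54), *Mrpl58* (-0.73), *Mrpl3* (-0.41), *Mrps34* (-0.74), *Dap3* (-0.81), *Ptcd3* (-0.044), *Gadd45gip1* (-0.31) and *Pars2* (-0.083). On log2(TPM + 1) and on log2(TPM + 0.1), 2 members were called higher and 66 lower by limma. On these scales the members' median minus that of all genes was -0.41 and 0.052, and *Pak4* was at -1.19 and -2.14. The sign turned on both for *Mrpl11* (-0.88 and -0.98), *Mrpl12* (-1.18 and -1.23), *Mrpl53* (-1.19 and -1.22), *Mrpl58* (-1.18 and -1.29), *Mrps18c* (-0.15 and -0.15), *Mrps30* (-0.52 and -0.58), *Mrpl3* (-0.95 and -1.04), *Mrps16* (-0.48 and -0.49), *Mrps22* (-0.56 and -0.58), *Mrps34* (-1.26 and -1.41), *Dap3* (-1.55 and -1.73), *Ptcd3* (-0.71 and -0.74), *Gadd45gip1* (-0.85 and -0.93), *Pars2* (-0.38 and -0.81), *mt-Rnr1* (-0.61 and -0.62), *mt-Rnr2* (-0.69 and -0.69) and *Mrpl30* (-0.23 and -0.23). With the length correction 25 members were called lower, the median difference was -0.012, rho with length was 0.14 and with GC content -0.57, and *Mrpl12* (-0.032), *Mrpl53* (-0.35) and *Mrps34* (-0.33) turned. The GC correction gave rho of -0.30 with length and -0.21 with GC content, and both corrections together gave -0.017 and -0.34, a median difference of 0.13, and -0.022 for *Mrpl53* and -0.14 for *Mrps34*. At least a 2-fold change left 16 higher and 4 lower. The cause of these shifts was not tested.

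Same-numbered mice did not deviate together (correlations 0.00023, -0.039 and -0.056). With the replicate block 29 members were called higher and 14 lower. Of all genes, 3129 were called higher and 3302 lower with the block, against 3661 and 3815 in the main fit. The replicate block with the length correction gave 24 lower, a median difference of -0.016, rho of 0.14 and -0.57, and *Mrpl12* at -0.072, *Mrpl53* at -0.36 and *Mrps34* at -0.32. The replicate block with the GC correction gave 8 lower and rho of -0.30 and -0.21. Of all genes, 3117 were called lower with the block and the length correction, and 2450 with the block and the GC correction.

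Without 1 mouse at a time, 27 to 33 members were called higher and 10 to 15 lower, with 10 without WT mouse 1. Of all genes, 2796 to 3517 were called higher and 2855 to 3792 lower in these fits. The median difference was 0.23 to 0.38, the large minus the small subunit median 0.24 to 0.37, rho with length -0.17 to -0.12 and with GC content -0.44 to -0.41. *Pak4* ranged from -1.08 to -0.49 and passed the threshold without LKO mouse 3. *Mrpl58* ranged from -0.015 to 0.24, *Mrps34* from -0.070 to 0.23 and *Dap3* from -0.071 to 0.24, with -0.032 without WT mouse 2.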
